A study of Vitis riparia with 12 samples.

Results

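The stilbene synthase array of grapevine was taken as every gene model with an identifier from VIT_16s0100g00750 to VIT_16s0100g01200 in the deposited root and shoot count tables, which gave 39 of 29966 gene models. In the PN40024 12X V1 assembly of Vitis vinifera the array lay on chromosome 16 from 16238965 to 16711898, a stretch of 473 kb. The tables give the start and end of each locus but no exons and no product names, so the name of the array rests on what is known of the V. vinifera genome. The spans of the loci ran from 560 bases for VIT_16s0100g00950 to 27673 bases for VIT_16s0100g01110.

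Stilbene synthases join p-coumaroyl-CoA with malonyl-CoA to make resveratrol, the parent compound of the antimicrobial stilbenes of grapevine. Chalcone synthases draw on the same substrates and lead to flavonoids instead, so the 2 enzymes stand at a branch of the phenylpropanoid pathway. In V. vinifera the stilbene synthase family has grown by tandem duplication, many copies are nearly identical, and stilbenes accumulate in roots and in leaves after infection or UV light.

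Potted vines of V. riparia in a greenhouse gave the tissue, the tips of roots and of shoots, on day 14, when WD (water deficit) vines had received no water and C (control) vines had received 2 L of tap water a day. Total RNA was sequenced in 12 libraries, with 3 replicates for each pairing of an organ with a water treatment, and a replicate combined 3 of the 36 vines. Root and shoot RNA were extracted by different methods, so organ and extraction method cannot be told apart. The reads of V. riparia were aligned to another grapevine species, and the counts hold only reads with a single place in that genome. Levels are given as counts, as CPM (counts scaled to library size by TMM over the 12 libraries) or as the deposited RPKM. RPKM is reads scaled to library size and to transcript length. Of the 3 measures only RPKM takes length into account, and its limits for near-identical copies are given below.

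Reads on gene models numbered 14376065 to 22800079 in the root libraries and 17429395 to 27769527 in the shoot libraries. The 6 photosynthesis genes used as shoot markers summed to 55.4 to 120 CPM in WD root, 7.39 to 16.7 CPM in C root, 9294 to 13943 CPM in WD shoot and 5151 to 11887 CPM in C shoot, which fits the organ labels. The 2 nitrate transport genes chosen as root markers, NRT3.1 (VIT_17s0000g09470) and NRT2.5 (VIT_14s0066g00850), did not mark root here, since they summed to 17.2 to 56.4 CPM in the root libraries and to 24.6 to 74.8 CPM in the shoot libraries. Nothing in the sources says whether the vines of a replicate were grown apart from those of another, so p-values measure the spread between these samples.

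Transcripts of the array were abundant in the root tip and close to absent from the shoot tip. Of the 39 members, 34 had 10 or more counts in some library, and the same number, 34, reached 10 counts in some root library. In shoot, 19 members reached 10 counts in some library, and 9 did so in a library other than C shoot replicate 2. Of the 34, 33 had 10 or more counts in every root library, 30 had 100 or more in every root library, and 15 had 1000 or more in every root library.

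The other 5 members had few or no counted reads. VIT_16s0100g00870, VIT_16s0100g00970 and VIT_16s0100g01080 were at 0 counts in each of the 12 libraries, and their highest RPKM in any library was 0.0152. VIT_16s0100g00960 had at most 8 counts in a library and VIT_16s0100g01060 at most 6, which places them just outside the limit of 10 counts. The member just inside it was VIT_16s0100g01130, with 37, 25 and 13 counts in WD root and 17, 22 and 8 counts in C root.

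The reads counted on the 39 members summed to 111645, 85151 and 93898 in WD root and to 76817, 139826 and 54773 in C root. In the shoot libraries the same sum was 132, 47 and 91 counts in WD shoot and 169, 1174 and 125 counts in C shoot. The root libraries therefore stood apart from the shoot libraries by more than an order of magnitude, and within shoot a single library, C shoot replicate 2, held 67.5% of the 1738 counts of the array.

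After scaling, the sum was 7536, 4249.5 and 3658 CPM in WD root, with a mean of 5148 ± 2089.6 CPM (SD, n = 3). It was 3818.5, 6193 and 3266 CPM in C root, with a mean of 4426 ± 1555 CPM (SD, n = 3). The WD and C root libraries overlapped, because the highest C library lay above the other two WD libraries. The ratio of the root means was 0.22 on the log2 scale (WD over C), and it was -0.16 without WD root replicate 1 and 0.54 without C root replicate 2, the highest library of each group.

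In WD shoot the sum was 7.91, 2.41 and 5.64 CPM, and in C shoot it was 7.99, 40.4 and 5.21 CPM. The log2 ratio of the means was -1.75 (WD over C) with C shoot replicate 2 and -0.31 without it. The shoot groups overlapped, and the other C libraries lay close to the range of the WD libraries.

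**Figure D1:**
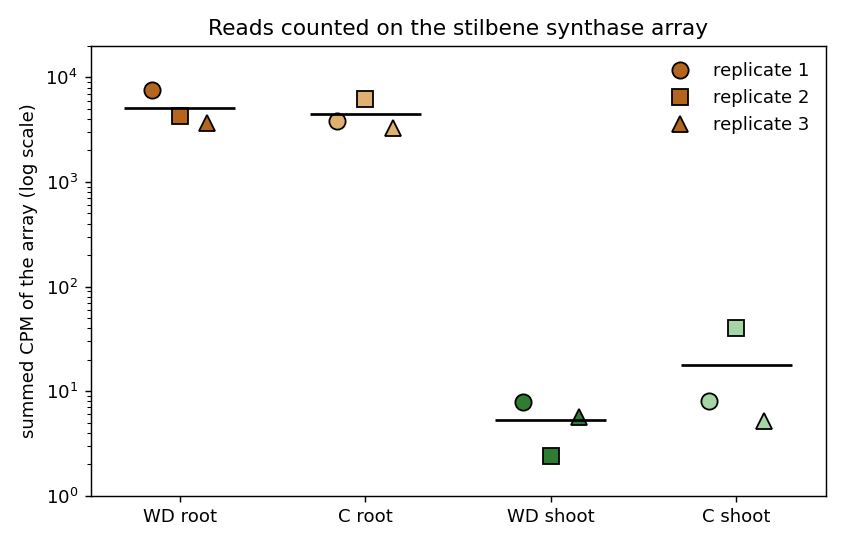
Summed CPM of the 39 members in each library, on a log axis, with a bar at the mean of the 3 replicates of each group. The 6 root libraries sit between 3266 and 7536 CPM and the 6 shoot libraries between 2.41 and 40.4 CPM, with C shoot replicate 2 above the other 5 shoot libraries.

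As a share of the reads on gene models, the array took 0.777%, 0.471% and 0.412% in WD root and 0.407%, 0.655% and 0.345% in C root. Counting error was small beside these differences, with a 95% Wilson interval of 0.772 to 0.781% for WD root replicate 1 and of 0.342 to 0.348% for C root replicate 3. Reads from PCR copies are not independent, so such intervals and the floors given below cover counting error only. Of the summed RPKM of all gene models, the array held 1.49 to 3.22% in WD root and 1.41 to 2.67% in C root.

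The log2 ratio of summed CPM between organs was 9.92 for WD root over WD shoot and 7.95 for C root over C shoot. The C value was 9.39 without C shoot replicate 2. These ratios come from sums over the members and carry no test.

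By the deposited RPKM, 3 members led the array in root, an order that differs from that by counts, as described below. VIT_16s0100g01200, at the far end of the array, was at 831, 448 and 448 RPKM in WD root, against 390, 532 and 321 RPKM in C root. VIT_16s0100g00860 was at 750, 396 and 258 RPKM in WD root, against 339, 666 and 336 RPKM in C root. VIT_16s0100g01100 was at 455, 420 and 579 RPKM in WD root, against 448, 487 and 311 RPKM in C root. Their means over the 6 root libraries were 495, 457 and 450 RPKM, and their ranges overlapped, so the order among them is not resolved. Each of them was the highest member in 2 of the 6 root libraries.

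The next 2 members by RPKM lay in the first portion of the array. VIT_16s0100g00810 was at 535, 295 and 202 RPKM in WD root, against 262, 508 and 251 RPKM in C root. VIT_16s0100g00930 was at 496, 262 and 181 RPKM in WD root, against 226, 456 and 223 RPKM in C root. In both, WD root replicate 1 and C root replicate 2 were the high libraries, and the other 4 lay close together.

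Those same libraries were high in the 5 further members of the leading 10. VIT_16s0100g00950, the shortest locus, was at 357, 249 and 159 RPKM in WD root, against 185, 356 and 163 RPKM in C root. VIT_16s0100g00940 was at 372, 189 and 132 RPKM in WD root, against 168, 332 and 163 RPKM in C root. VIT_16s0100g01190 was at 387, 200 and 190 RPKM in WD root, against 177, 255 and 148 RPKM in C root. All 3 had their highest value in WD root replicate 1. VIT_16s0100g01070 was at 339, 180 and 180 RPKM in WD root, against 167, 220 and 130 RPKM in C root. VIT_16s0100g00800 was at 344, 148 and 104 RPKM in WD root, against 135, 259 and 117 RPKM in C root. In each of these 5 members the WD and C root libraries overlapped.

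Among the 39 members, 23 averaged 100 RPKM or more over the root libraries, 12 averaged from 10 up to 100 RPKM, and 4 averaged under 10 RPKM. Over all 29966 gene models, 385 (1.28%) averaged 100 RPKM or more in root, and the highest member, VIT_16s0100g01200, ranked 40 among them. The median of the member means was 124 RPKM, beside 1.21 RPKM over all gene models. In shoot the median of the member means was 0.218 RPKM, beside 1.01 RPKM over all gene models, and no member went above 4.96 RPKM in any shoot library. The 10 members with the most RPKM held 55.7% of the array's summed root RPKM, and the 10 with the most counts held 71.4% of its summed root counts.

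**Figure D2:**
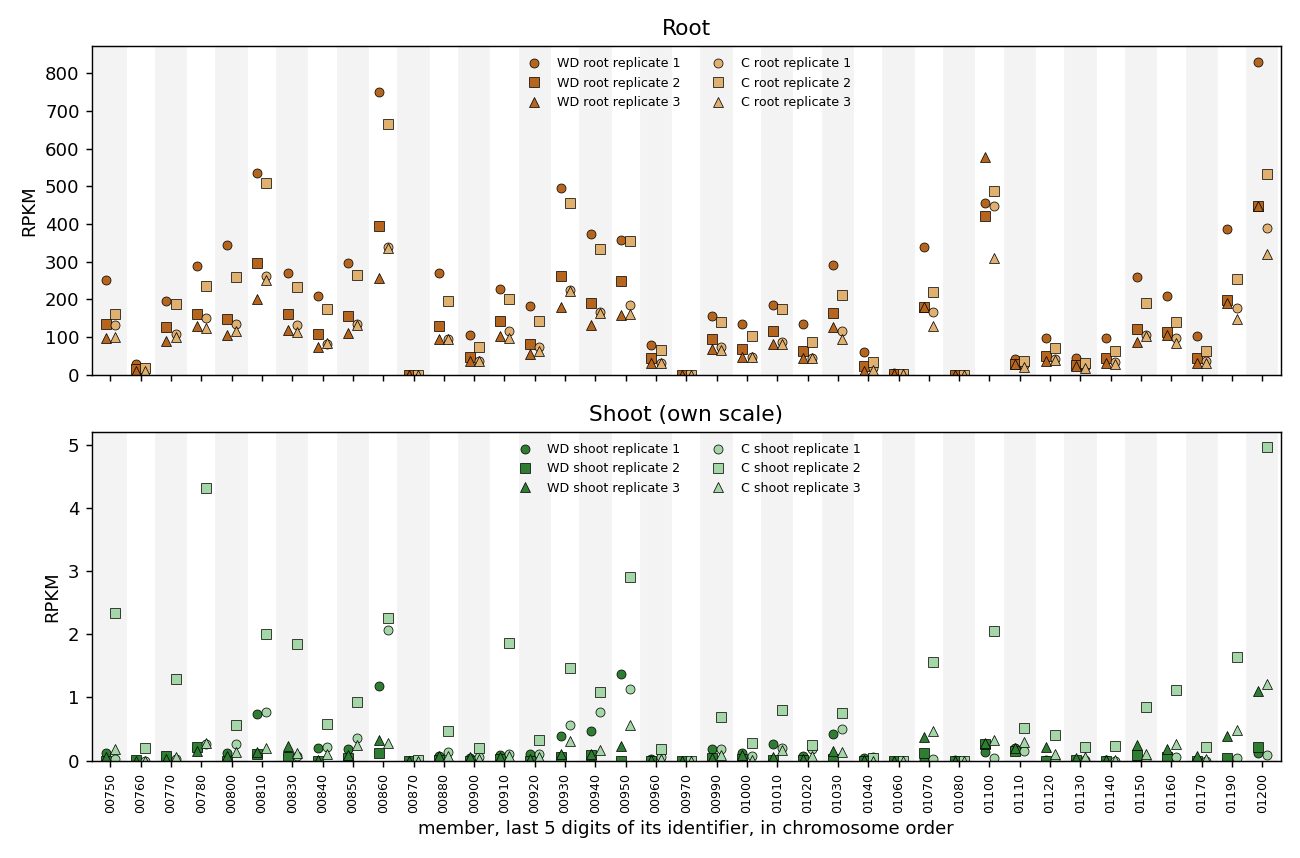
Deposited RPKM of each member in chromosome order, with 1 point per library, root above and shoot below on its own scale. In root 3 members lead, VIT_16s0100g00860, VIT_16s0100g01100 and VIT_16s0100g01200, while in shoot the high points are mostly C shoot replicate 2, up to 4.96 RPKM.

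Counts and RPKM ranked the members differently, and 5 members were shared by the leading 10 on each scale. The locus with the most counts after VIT_16s0100g01100 was VIT_16s0100g01110, with 13188, 11635 and 14456 counts in WD root and 11670, 18513 and 7490 counts in C root. Its span was the longest of the array, and its RPKM was 41.8, 28.0 and 27.3 in WD root and 27.1, 37.1 and 20.8 in C root. VIT_16s0100g00850 showed the opposite, with 242, 237 and 175 counts in WD root and 234, 328 and 109 counts in C root beside an average of 182 RPKM over the root libraries. VIT_16s0100g00960 reached 79.4 RPKM in WD root replicate 1 with 8 counted reads there.

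The 2 measures treat reads that fit several places differently: the count tables leave such reads out, while Cufflinks by default divides them among their places. Reads set aside for this reason made up 14.6 to 17.5% of the tallied reads in the root libraries and 9.51 to 10.3% in the shoot libraries. To set the measures against each other, the counted CPM (here of total reads on genes) was divided by RPKM and by the span in kb. Among 1591 other gene models of similar span (1000 to 2500 bases) with at least 10 RPKM in root, the median of this quotient was 1.09 and its 10th percentile was 0.594. For the 29 members within the same limits the median was 0.454, and it ran from 0.0235 for VIT_16s0100g00990 to 0.906 for VIT_16s0100g01100. All 29 lay under the median of the other gene models, and 22 lay under their 10th percentile. The span includes introns, so the quotient describes a locus and is not a share of reads.

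Among these 29, the members with the next lowest quotients after VIT_16s0100g00990 were spread along the array. VIT_16s0100g00850 stood at 0.0431, VIT_16s0100g00880 at 0.0477, VIT_16s0100g01160 at 0.0539, VIT_16s0100g01070 at 0.126 and VIT_16s0100g01190 at 0.127. For these members counts and RPKM differed most. Reads shared between near-identical copies are left out of the counts, so a count of a single member is uncertain. The RPKM of a single member is uncertain as well, since it can hold reads divided among copies.

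**Figure D3:**
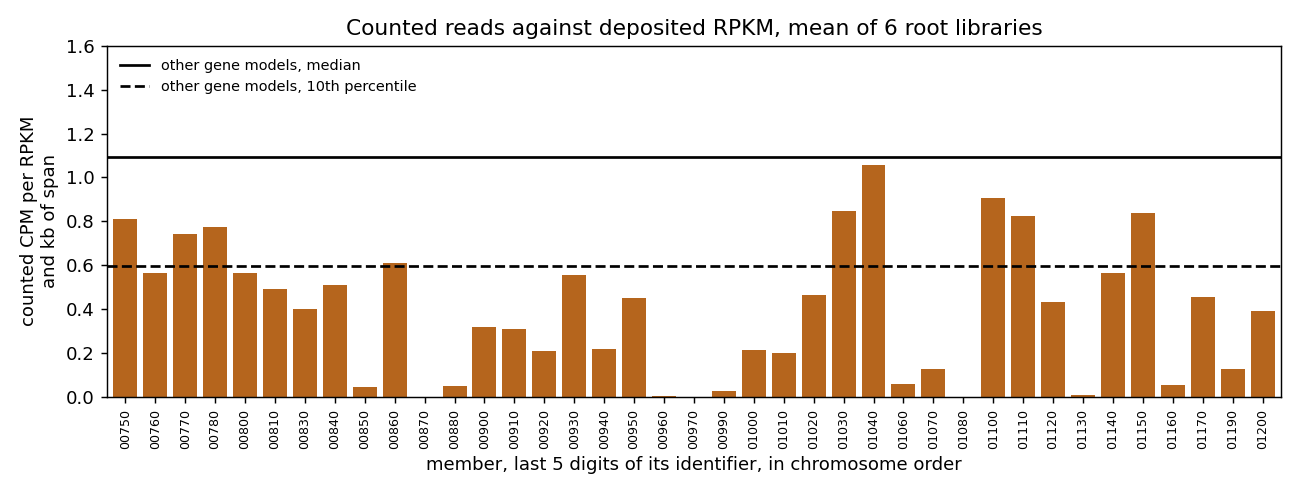
Counted CPM per RPKM and kb of span for each member, from the means of the 6 root libraries, with lines at the median (1.09) and the 10th percentile (0.594) of 1591 other gene models. VIT_16s0100g01100 is near 0.906. VIT_16s0100g00960 and VIT_16s0100g01130, at 0.0040 and 0.0075, lie lowest of the members with a bar. VIT_16s0100g00850, VIT_16s0100g00880, VIT_16s0100g00990, VIT_16s0100g01060 and VIT_16s0100g01160 also lie close to 0. Members under 1 RPKM have no bar.

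Across the 6 root libraries the members moved up and down together. Of the 34 members with 10 or more counts, 30 had their highest root CPM in WD root replicate 1 and 2 in C root replicate 2. Their lowest root CPM fell in WD root replicate 3 for 21 members and in C root replicate 3 for 13. The libraries that were high and low were thus found in both water treatments.

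VIT_16s0100g01100 departed from this pattern, as did VIT_16s0100g01160, whose highest root CPM was in WD root replicate 2. VIT_16s0100g01100 was at 709, 622 and 881 CPM in WD root, against 646, 733 and 471 CPM in C root. Its highest library was WD root replicate 3, in which most members were lowest. It made up 24.1% of the array's counts in that library and 9.40 to 16.9% in the other root libraries. The portion of the array beyond the midpoint of its span, which holds 18 members, took 62.5% of the counts in WD root replicate 3 and 48.6 to 54.3% in the other 5 root libraries. Without VIT_16s0100g01100 those values were 50.7% and 41.7 to 45.5%.

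Transcripts of the array were higher in root than in shoot under both water treatments. VIT_16s0100g00860 had 10061, 7035 and 5585 counts in WD root, against 27, 2 and 6 counts in WD shoot. In the controls it had 6172, 13329 and 5022 counts in C root, against 55, 68 and 7 counts in C shoot. VIT_16s0100g01200 had 8046, 5808 and 7696 counts in WD root, against 4, 4 and 18 counts in WD shoot. These members show the common pattern, in which no shoot library came near a root library.

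In the controls VIT_16s0100g01200 had 5106, 7691 and 3578 counts in C root, against 2, 125 and 26 counts in C shoot. VIT_16s0100g01100 had 10498, 12464 and 22608 counts in WD root, against 4, 8 and 7 counts in WD shoot. It had 13003, 16544 and 7892 counts in C root, against 1, 91 and 9 counts in C shoot. C shoot replicate 2 was the highest shoot library for both of these members.

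In edgeR's quasi-likelihood test over the 12 libraries, with Benjamini-Hochberg adjustment over 21267 genes, the log2 fold change of VIT_16s0100g00860 was 9.24 ± 1.06 (SE) for WD root over WD shoot (adjusted p = 4.12e-05) and 7.83 ± 0.97 for C root over C shoot (adjusted p = 7.99e-05). The values for VIT_16s0100g01200 were 9.52 ± 1.12 (adjusted p = 4.84e-05) and 7.16 ± 0.98 (adjusted p = 0.000148). For VIT_16s0100g01100 they were 10.97 (adjusted p = 1.98e-05) and 8.96 (adjusted p = 3.94e-05). Without C shoot replicate 2 the C root over C shoot value of VIT_16s0100g01100 was 11.42 and that of VIT_16s0100g01200 was 8.78.

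The 34 members tested were called higher in root in both comparisons, where 30.2% of all tested genes were called higher in WD root than in WD shoot and 24.7% higher in C root than in C shoot. The 34 had passed the filter on low counts through their root libraries, so this number and the p-values above describe them and add no support. Every root library lay above every shoot library for each of these 34. The share of all tested genes with that separation was not counted, so this number too only describes the members.

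Several members had no counted read in a shoot group, and their fold changes are lower bounds against a floor of 3 counts per library. In WD shoot this held for VIT_16s0100g01140, which averaged 54.2 ± 33.2 CPM in WD root (SD, n = 3) and was at least 313-fold higher there than the floor of 0.173 CPM. The bounds for 5 other members at 0 in WD shoot ran from at least 8.18-fold for VIT_16s0100g01130 to at least 82.7-fold for VIT_16s0100g01160. In C shoot only VIT_16s0100g00850 of the 34 was at 0 in the 3 libraries, and it was at least 88.2-fold higher in C root, at 10.9 ± 4.07 CPM (SD, n = 3).

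Fewer cells that transcribe the array and less RNA per cell cannot be told apart in whole root and shoot tips. In root the photosynthesis markers were higher in WD than in C libraries, at 55.4 to 120 CPM against 7.39 to 16.7 CPM. WD root replicate 3 had the most of these markers, and their part in the array's level was not tested.

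The 6 members with the most reads in the shoot libraries were named after their values were seen. VIT_16s0100g00780 had 6, 6 and 5 counts in WD shoot, against 9, 193 and 10 counts in C shoot. VIT_16s0100g01110 had 17, 14 and 16 counts in WD shoot, against 2, 161 and 23 counts in C shoot. VIT_16s0100g00750, the first member of the array, had 4, 0 and 1 counts in WD shoot, against 1, 106 and 5 counts in C shoot. Together with VIT_16s0100g00860, VIT_16s0100g01100 and VIT_16s0100g01200 above, these showed that the reads of C shoot replicate 2 were spread over many members and did not come from a single locus. Of the 33 members with any read in shoot, 25 had their highest shoot CPM in that library, and 19 reached 10 counts in it, against 1 to 5 members in each of the other shoot libraries.

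In that library the photosynthesis markers summed to 5151 CPM, the lowest of the shoot libraries, of which the other 5 were at 8056.5 to 13943 CPM and the root libraries at 7.39 to 120 CPM. The nitrate transport genes, which did not mark root, summed to 24.6 CPM there, also the lowest of the shoot libraries. The part of either in the array's level was not tested.

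The shoot libraries also differed in where on the array their few reads fell, which was noticed after the values were seen. The portion beyond the midpoint held 37.9% of the array's counts in WD shoot replicate 1 (95% Wilson interval 30.1 to 46.4%, 132 counts), 74.5% in replicate 2 (60.5 to 84.7%, 47 counts) and 69.2% in replicate 3 (59.1 to 77.8%, 91 counts). In C shoot it held 25.4% in replicate 1 (19.5 to 32.5%, 169 counts), 43.2% in replicate 2 (40.4 to 46.0%, 1174 counts) and 63.2% in replicate 3 (54.5 to 71.1%, 125 counts). WD shoot replicate 1 and C shoot replicate 1 thus drew most of their reads from the first 21 members, with VIT_16s0100g00860 leading both at 27 and 55 counts. In WD shoot replicate 3 and C shoot replicate 3 the leading member was VIT_16s0100g01200, at 18 and 26 counts. The difference cut across the water treatments.

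**Figure D4:**
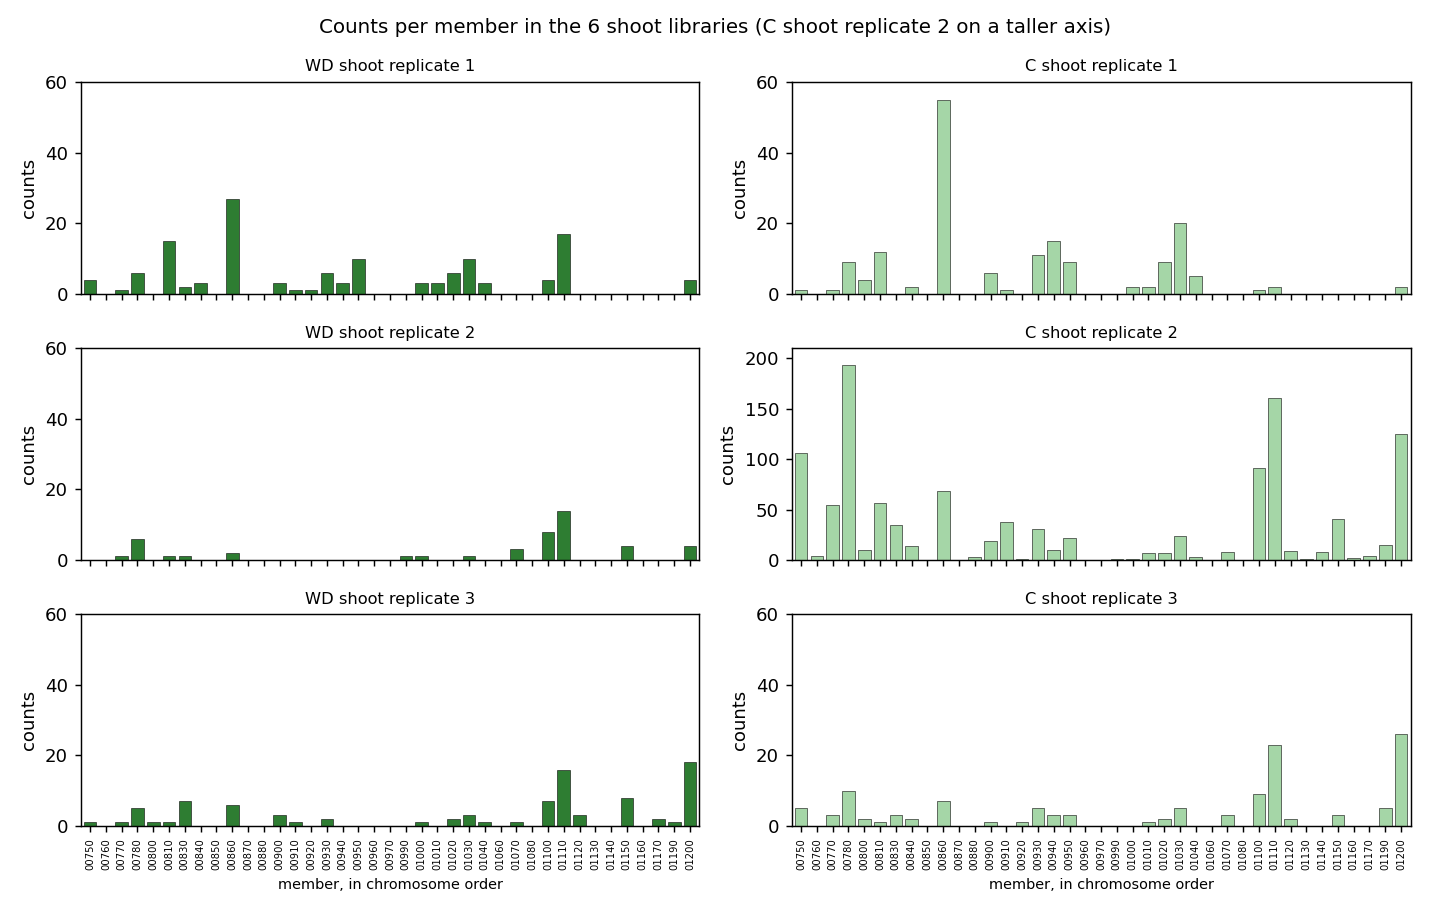
Counts of each member in the 6 shoot libraries, in chromosome order, WD shoot on the left and C shoot on the right, with a taller axis for C shoot replicate 2. In the replicate 1 libraries VIT_16s0100g00860 leads with 27 and 55 counts, and C shoot replicate 2 reaches 193 counts at VIT_16s0100g00780.

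Water deficit did not change any member past the threshold in root. Of the 34 members tested, 0 passed an adjusted p of 0.05 in edgeR's quasi-likelihood test, as for the background, in which 0 of 19545 genes (0%) did. At an unadjusted p under 0.05 there was 1 member, or 2.94%, beside 9.06% of all tested genes. DESeq2 called 1 member, and its calls over all genes were not counted. The median log2 fold change of the 34 was 0.24 (WD over C), beside 0.01 for all tested genes, with 33 members above 0 and 1 below. The median was -0.23 without WD root replicate 1 and 0.57 without C root replicate 2. Since members share libraries and rise and fall together, their signs are not separate observations.

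Among the 10 leading members, the log2 fold changes in root lay from 0.01 ± 0.43 (SE) for VIT_16s0100g00810 to 0.50 ± 0.31 for VIT_16s0100g01200. That of VIT_16s0100g00860 was 0.07 ± 0.47 and that of VIT_16s0100g01100 was 0.27 ± 0.25. The adjusted p by edgeR was 0.666 or higher for these 10.

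VIT_16s0100g01160 was the member with an unadjusted p under 0.05, and is named for that reason. It had 171, 361 and 345 counts in WD root, against 117, 180 and 72 counts in C root. In CPM these were 11.5, 18.0 and 13.4 in WD root, against 5.82, 7.97 and 4.29 in C root, and it was the only one of the 34 whose WD and C root libraries did not overlap, a pattern found in 15.0% of all tested genes. Its log2 fold change was 1.26 ± 0.29 (SE), with an adjusted p of 0.386 by edgeR, and DESeq2 gave 1.24 with an adjusted p of 0.0124. Over the other settings tried for this member the adjusted p ran up to 0.905, and none of them called it.

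The RPKM of VIT_16s0100g01160 did not show the same difference. It was 209, 113 and 105 in WD root, against 97.3, 140 and 83.1 in C root, and these overlapped. In limma's test on log2(RPKM + 1) the log2 fold change was 0.37 ± 0.35 (SE). Its counted CPM per RPKM and kb was the 0.0539 given above.

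**Figure D5:**
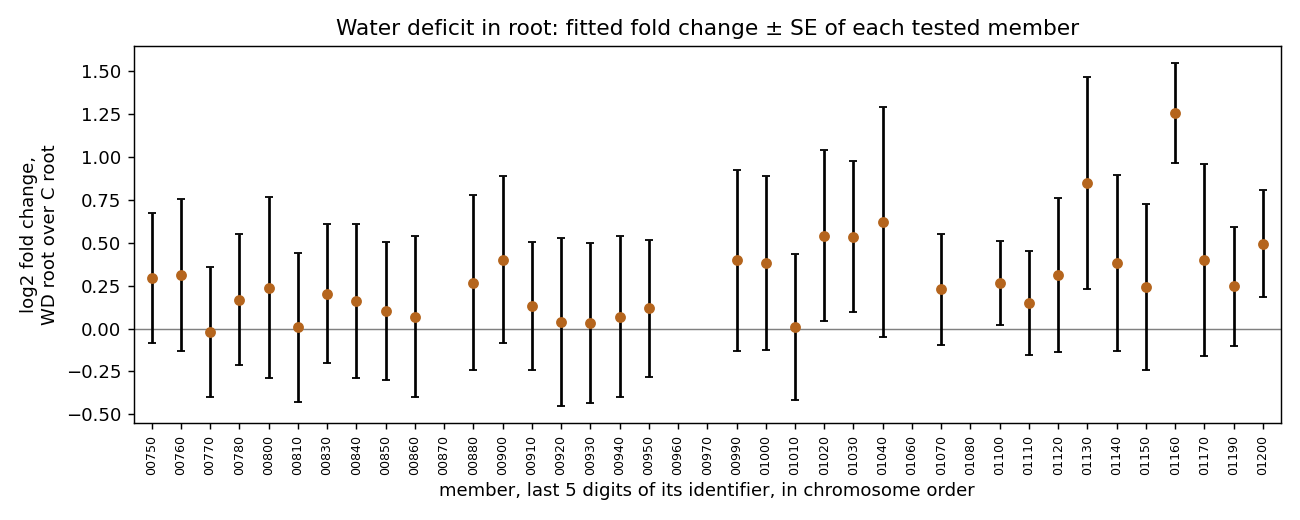
Log2 fold change of each of the 34 tested members, WD root over C root, with bars of 1 SE, in chromosome order. The points lie near or above 0 with a median of 0.24, and VIT_16s0100g01160, at 1.26, stands above the rest.

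In shoot 5 of the 39 members passed the filter on low counts, and 0 of these 5 passed an adjusted p of 0.05, where 27.1% of 19569 genes did. None of the 5 was under an unadjusted p of 0.05 in edgeR, and DESeq2 called 0. Their log2 fold changes ran from -1.88 ± 1.24 (SE) for VIT_16s0100g01200 to -1.28 ± 0.87 for VIT_16s0100g01030 (WD over C), with a median of -1.36, beside -0.02 for all tested genes. Without C shoot replicate 2 the value for VIT_16s0100g01200 was -0.24 and that for VIT_16s0100g00810 was 0.15, beside -1.43 with it. The whole array summed to 2.41 to 7.99 CPM in the other 5 shoot libraries. With each library left out, 5 to 8 members were tested and 0 were called. Without WD shoot replicate 1, 3 of 7 were under an unadjusted p of 0.05, and without C shoot replicate 1, 2 of 6. There were 0 without any other library. The shares of all genes in these fits and in DESeq2 were not counted.

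Whether the response to water deficit differed between root and shoot was tested over the 12 libraries. Of the 34 members 0 passed an adjusted p of 0.05 in edgeR, where 0.607% of 21267 genes did, with 3 members (8.82%) under an unadjusted p of 0.05, beside 19.7% of all tested genes. DESeq2 called 0, with 8 under an unadjusted p of 0.05. The lowest adjusted p was 0.214, for VIT_16s0100g01190, which had 0, 0 and 1 counts in WD shoot, against 0, 15 and 5 counts in C shoot. With each library left out in turn, 0 to 9 members were under an unadjusted p of 0.05 and 0 were called. There were 0 without WD root replicate 1, C root replicate 3, WD shoot replicate 2 or C shoot replicate 2, and 9 without C shoot replicate 1 or C shoot replicate 3. Shares over all genes were not counted for DESeq2 or for the fits with a library left out, so these numbers only describe the members.

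The enzymes that supply the array were set beside it with a list of 7 genes, which the study's tables name. These genes were chosen there as genes that differed in these libraries, so their directions are not independent evidence. Further candidate genes for the same enzymes had no annotation in the sources and were left out, so the list does not cover any enzyme as a whole. Phenylalanine ammonia-lyase (VIT_06s0004g02620), which opens the phenylpropanoid pathway, was at 283, 182 and 168 CPM in WD root, against 352, 440 and 390 CPM in C root. It was at 83.8, 79.4 and 31.5 CPM in WD shoot, against 184, 229 and 169 CPM in C shoot. In both organs each WD library lay under each C library. Its log2 fold change (WD over C) was -0.90 ± 0.25 (SE) in root (adjusted p = 0.409 by edgeR) and -1.61 ± 0.37 in shoot (adjusted p = 0.0255). DESeq2 gave an adjusted p of 0.0438 in root, and the shoot call was lost (adjusted p up to 0.0712) without WD shoot replicate 2, C shoot replicate 2 or C shoot replicate 3.

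The listed gene of cinnamate 4-hydroxylase (VIT_11s0078g00290), the next enzyme, was also low in shoot. It was at 42.1, 10.1 and 12.8 CPM in WD root, against 0.18, 0 and 0.805 CPM in WD shoot. In the controls it was at 25.0, 55.7 and 14.3 CPM in C root, against 0.0473, 1.31 and 0 CPM in C shoot. Its high libraries were WD root replicate 1, C root replicate 2 and, among C shoot, replicate 2, as for most members of the array. The log2 fold change was 6.07 ± 1.36 (SE) for WD root over WD shoot (adjusted p = 0.00295 by edgeR) and 6.02 ± 1.29 for C root over C shoot (adjusted p = 0.00266). With each library left out they ran from 5.16 to 7.91 under WD, the highest without WD shoot replicate 3, and from 5.34 to 10.11 under C, the highest without C shoot replicate 2. This gene did not pass the filter on low counts in shoot and entered the organ comparison through its root libraries, so these values describe it and add no support.

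The 2 listed genes of 4-coumarate-CoA ligase, which makes the p-coumaroyl-CoA used by both branches, did not share that pattern. VIT_16s0050g00390 was at 21.4, 79.8 and 186 CPM in WD root, against 25.3, 54.3 and 13.5 CPM in C root. It was at 294, 358 and 264 CPM in WD shoot, against 69.6, 31.6 and 28.0 CPM in C shoot, with a log2 fold change of 2.82 ± 0.38 (SE, adjusted p = 0.00972 by edgeR). It rose in WD shoot, the organ in which the array was close to silent. VIT_06s0061g00450 was at 118, 148 and 177 CPM in WD shoot, against 101, 94.0 and 78.3 CPM in C shoot, with a log2 fold change of 0.68 ± 0.20 and an adjusted p of 0.0490 that passed the threshold narrowly. That call was lost when any library but WD shoot replicate 1 was left out and under 5 other settings, with an adjusted p of up to 0.167.

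Chalcone synthase was present in both organs, unlike the array. VIT_14s0068g00920 was at 193, 101 and 80.9 CPM in WD root, against 223, 269 and 269 CPM in C root. It was at 151, 122 and 111 CPM in WD shoot, against 231, 360 and 290 CPM in C shoot, and fell by 1.23 ± 0.23 on the log2 scale (SE, adjusted p = 0.0161 by edgeR). VIT_14s0068g00930 was at 134, 121 and 85.6 CPM in WD shoot, against 193, 284 and 246 CPM in C shoot, and fell by 1.12 ± 0.24 (adjusted p = 0.0210). The call of VIT_14s0068g00920 was lost without WD shoot replicate 2 or C shoot replicate 3 (adjusted p up to 0.0677), and that of VIT_14s0068g00930 without WD shoot replicate 2 or 3 or C shoot replicate 2 or 3 (adjusted p up to 0.0722). In root the WD libraries of VIT_14s0068g00920 lay under the C libraries, with a log2 fold change of -1.02 ± 0.34 and an adjusted p of 0.469.

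A pair of MYB regulators is known in V. vinifera to activate stilbene synthase promoters. Of the ids considered for it, only VIT_05s0049g01020 was annotated in the sources, where the study names it Myb domain protein 14. That name was not checked, and which member of the pair the gene is was not settled. VIT_05s0049g01020 was at 27.2, 20.3 and 27.4 CPM in WD root, against 1.44, 3.29 and 6.13 CPM in WD shoot. In the controls it was at 17.4, 23.8 and 6.20 CPM in C root, against 1.09, 1.07 and 1.08 CPM in C shoot. The gene was therefore higher in root, by 2.79 ± 0.54 on the log2 scale under WD (SE, adjusted p = 0.00123 by edgeR) and by 3.87 ± 0.57 under C (adjusted p = 0.000263). C shoot replicate 2, the shoot library with the most reads on the array, was not raised for this gene. In shoot its log2 fold change was 1.73 ± 0.54 (WD over C) with an adjusted p of 0.0555 by edgeR and 0.0136 by DESeq2, and in root it was 0.67 ± 0.45 with an adjusted p of 0.679.

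Over the 7 genes, 2 rose and 3 fell in WD shoot against C shoot among 6 that were tested, where 27.1% of genes were called. Leaving out WD shoot replicate 2 or C shoot replicate 3 gave 1 call, leaving out C shoot replicate 2 gave 2, and leaving out WD shoot replicate 3 gave 3. In root 0 of 7 were called by edgeR and 1 by DESeq2. For the difference of response between organs 0 of 7 were called by either tool. Between organs 3 of 7 were called higher in root under WD, where 30.2% of all tested genes were, and the same number under C, where 24.7% were: phenylalanine ammonia-lyase, cinnamate 4-hydroxylase and Myb domain protein 14. Under C the call of phenylalanine ammonia-lyase was lost without C root replicate 2 or 3 or C shoot replicate 1 or 3 (adjusted p up to 0.0870). Under WD 5 of the list were called without WD root replicate 3, of which 3 were higher and 2 lower in root.

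As a sum, the 10 gene models that flank the array lay far below its 39 members in root. The 5 before it and the 5 after it summed to 131 to 154 CPM in WD root, 122 to 135 CPM in C root, 113 to 141 CPM in WD shoot and 97.9 to 112 CPM in C shoot. VIT_16s0100g00740, next to the first member, had at most 0.299 CPM in a root library and 1.67 CPM in a shoot library. VIT_16s0100g01210, next to the last member, was at 1.75, 1.55 and 3.23 CPM in WD root, against 31.3, 16.7 and 22.9 CPM in WD shoot. The gene model next to the array on each side was thus low in root. VIT_16s0100g01210 was higher in shoot, with a log2 fold change of -3.42 ± 0.38 for WD root over WD shoot (SE, adjusted p = 3.55e-05 by edgeR) and -3.60 ± 0.40 for C root over C shoot (adjusted p = 3.63e-05). Farther out, VIT_16s0100g01230 was at 58.4 to 99.3 CPM in the root libraries and 59.8 to 87.1 CPM in the shoot libraries. VIT_16s0100g00730 was called higher in root, by 1.34 ± 0.27 on the log2 scale under WD (adjusted p = 0.00152 by edgeR) and 0.94 ± 0.26 under C (adjusted p = 0.0117). Higher in root were also called VIT_16s0100g00720 under C and VIT_16s0100g01220 and VIT_16s0100g01250 under WD.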

How the data were processed

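Single-end reads were cleaned by the authors in Prinseq and placed by TopHat 2.0.8 and Bowtie2 2.1.0 on PN40024 12X V1, and the authors deposited raw counts per gene model from htseq-count, with reads of several places left out. The deposited RPKM of each library came from Cufflinks (version 2.2.2 in the submitters' processing notes). Deposited tables of the authors' own comparisons hold group values, fold changes and p-values and were not used. Lines that name no gene, 23.5 to 30.9% of the tallied reads, were left out of library sizes. Value columns with no matching sample numbered 0.

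From the counts, genes were filtered with filterByExpr, scaled by TMM and tested with edgeR 4.0.16 (quasi-likelihood, robust, R 4.3.3). WD and C were compared within each organ over its 6 libraries, and organs and their interaction over 12. P-values were adjusted by Benjamini-Hochberg over all tested genes, with a threshold of 0.05. The SE is the log2 fold change divided by the square root of F. DESeq2 1.42.0, limma 3.58.1 on log2 RPKM with pseudocounts of 1 or 0.1, other scalings and filters, a replicate block and each library left out were alternatives. The code was tested on simulated data. Starts of loci were shifted by 1 to count from 1.

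The members and lists were chosen with earlier results of these data known. Members given in full were the 10 with the highest mean RPKM over the 12 libraries and any with an adjusted p under 0.05 for WD against C or the interaction, of which there were 0. Replicates within a group differed by more than sampling noise.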

Additional observations from a re-analysis of the deposited data

How the results depend on the processing

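The calls on the array kept their counts under the alternatives with 1 exception. In WD root against C root DESeq2 called 1 member, VIT_16s0100g01160 (log2 fold change 1.24), and every other alternative called 0. Leaving out each library called 0 members in root, shoot and the interaction and 34 in both organ comparisons. With at least 10 counts required in every library, no member was left to test in shoot, between organs or for the interaction. The number with reads was 36, 34 and 33 at minimums of 5, 30 and 100 counts.

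The log2 ratio of the summed counts ran from -2.18 to -0.31 in shoot, from -0.16 to 0.54 in root, from 7.52 to 9.39 for C root over C shoot and from 9.54 to 10.32 for WD root over WD shoot when each library was left out. The outer values -0.31 and 9.39 came without C shoot replicate 2.

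Small changes in root turned direction. That of VIT_16s0100g00810 (0.01) was -0.0048 with DESeq2, -0.0068 with upper-quartile scaling, -0.0095 with no filter, -0.0218 and -0.0220 in limma with pseudocounts of 1 and 0.1, and -0.0002 with all 12 libraries in a single model. With the replicate block it was -0.0475, and VIT_16s0100g00860, VIT_16s0100g00930 and VIT_16s0100g00940 were at -0.0307, -0.0344 and -0.0201. With each library left out the log2 fold changes in root ran from -0.47 to 0.67 for VIT_16s0100g00800, -0.47 to 0.40 for VIT_16s0100g00810, -0.49 to 0.45 for VIT_16s0100g00860, -0.50 to 0.47 for VIT_16s0100g00930, -0.50 to 0.48 for VIT_16s0100g00940, -0.22 to 0.53 for VIT_16s0100g00950, -0.15 to 0.44 for VIT_16s0100g01070, -0.20 to 0.48 for VIT_16s0100g01190 and -1.46 to 0.13 for VIT_11s0078g00290. In shoot that of VIT_16s0100g00810 ran from -3.85 to 0.15. The cause was not tested.

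The replicate numbers were not taken to pair the samples. Same-numbered libraries had correlated deviations of -0.43 to 0.16 between treatments and 0.002 to 0.30 between organs. The paper describes root and shoot tips collected at the same time for each replicate, so the organs may share vines. The main organ and interaction tests treated their libraries as independent. The replicate block left the calls on the array at 0, 0, 34, 34 and 0. It raised the listed phenylpropanoid genes called between WD root and WD shoot to 5 (3 higher and 2 lower in root), against 3 without it. Near-identical copies and the low counts in shoot limit what single members can show.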
